A study of Mus musculus with 24 samples.

Results

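The neurogenesis genes described here are 50 of the 55450 mouse genes of the GENCODE M21 annotation of GRCm38 (mm10), chosen by name for their part in adult neurogenesis of the dentate gyrus: 17 of neural stem cells, 11 of neuronal commitment, 6 of granule neurons, 3 of the nuclear factor I family, 4 of Notch signalling, 6 of hedgehog signalling and 3 of bone morphogenetic protein (BMP) signalling. All measured CpG cytosines inside these genes or within 2000 bases of them were taken, which gave 4677 of the 762162 CpG cytosines in the table. Of these, 2061 lay within 1000 bases of a transcription start and are called promoter, 2188 lay elsewhere in the gene and are called gene body, and 428 lay in the flanks. Cytosines were measured in 49 of the 50 genes, with 5 to 288 per gene and a median of 76. Calb1, which encodes the granule neuron protein calbindin, had none. Id1 had 1 promoter cytosine, and Gfap, Sox5 and Neurod6 had none in the promoter.

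Methylation was measured by reduced representation bisulfite sequencing (RRBS), in which a restriction enzyme that cuts at CCGG enriches CpG-rich fragments and bisulfite separates methylated from unmethylated cytosines. The tissue was dentate gyrus micro-dissected from single female C57BL/6JRj mice. Young STD mice (n = 5) were 1.5 months old and lived in standard cages, Aged STD mice (n = 7) were 14 months old and lived in standard cages, and Aged ENR mice (n = 7) were 14 months old and lived in environmental enrichment, a large cage with changing objects. Young ENR mice were not analysed here. Aged STD and Young STD mice differ in age, Aged ENR and Aged STD mice differ in housing, and Aged ENR and Young STD mice differ in both. Strain, sex and tissue were the same in all 3 groups. Each value stands for a mixture of cell types, so a change in cells and a change in the share of a cell type cannot be told apart.

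New granule neurons arise from radial stem cells of the subgranular zone through amplifying progenitors and neuroblasts. Transcription factors mark the steps: Sox2 and the Hes and Id families hold the stem cell state, Neurog2, Eomes and Neurod1 mark committed progenitors, and Prox1 sets granule neuron identity. Notch ligands and receptors, Sonic hedgehog and BMPs act from the niche on quiescence and proliferation. Methylation of CpG-dense promoters is usually low in all tissues, while CpG-poor gene bodies are usually methylated.

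The sequences shown first give the CpG content of promoters of these genes and the CpGs measured in them. They are promoter windows of 300 bases, 250 before and 50 after the start, from RefSeq on GRCm38.p6, written 5′ to 3′ on the strand of the gene. Capitals mark CpGs in which at least 1 cytosine was measured, and each window is shown because it stands for a different kind of promoter. Sox2 (chr3:34649745-34650044, plus strand) and Neurod1 (chr2:79456587-79456886, minus strand) stand for CpG-dense promoters of a stem cell and a progenitor factor, and Prox1 (chr1:190170778-190171077, minus strand) for that of the granule neuron factor. Bmp4 (chr14:46390620-46390919, minus strand) had the most methylated promoter of the genes, and Gfap (chr11:102897151-102897450, minus strand), an astrocyte and stem cell filament gene, had a CpG-poor promoter without a measured cytosine.
Sox2 promoter: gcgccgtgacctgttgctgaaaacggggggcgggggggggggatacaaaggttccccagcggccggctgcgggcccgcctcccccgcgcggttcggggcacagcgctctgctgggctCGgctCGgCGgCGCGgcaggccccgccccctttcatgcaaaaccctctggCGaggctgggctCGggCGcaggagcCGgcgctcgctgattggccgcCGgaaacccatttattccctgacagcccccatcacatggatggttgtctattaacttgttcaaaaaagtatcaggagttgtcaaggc
Neurod1 promoter: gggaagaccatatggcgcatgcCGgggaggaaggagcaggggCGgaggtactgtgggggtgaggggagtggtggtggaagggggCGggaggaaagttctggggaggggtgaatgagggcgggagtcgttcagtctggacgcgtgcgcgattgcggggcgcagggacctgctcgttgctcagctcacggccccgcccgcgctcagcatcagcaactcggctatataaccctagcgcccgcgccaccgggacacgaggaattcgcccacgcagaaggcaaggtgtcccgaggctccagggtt
Prox1 promoter: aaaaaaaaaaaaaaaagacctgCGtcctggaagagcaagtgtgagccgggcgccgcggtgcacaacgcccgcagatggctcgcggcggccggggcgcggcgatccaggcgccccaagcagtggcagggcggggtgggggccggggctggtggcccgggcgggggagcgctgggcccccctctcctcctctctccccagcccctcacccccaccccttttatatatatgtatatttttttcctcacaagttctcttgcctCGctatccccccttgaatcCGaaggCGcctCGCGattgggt
Bmp4 promoter: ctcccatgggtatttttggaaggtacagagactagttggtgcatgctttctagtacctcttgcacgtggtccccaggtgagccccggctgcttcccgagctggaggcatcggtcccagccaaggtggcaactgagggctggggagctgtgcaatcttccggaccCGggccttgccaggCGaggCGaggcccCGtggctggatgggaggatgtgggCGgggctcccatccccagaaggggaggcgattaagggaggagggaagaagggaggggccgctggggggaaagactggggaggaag
Gfap promoter: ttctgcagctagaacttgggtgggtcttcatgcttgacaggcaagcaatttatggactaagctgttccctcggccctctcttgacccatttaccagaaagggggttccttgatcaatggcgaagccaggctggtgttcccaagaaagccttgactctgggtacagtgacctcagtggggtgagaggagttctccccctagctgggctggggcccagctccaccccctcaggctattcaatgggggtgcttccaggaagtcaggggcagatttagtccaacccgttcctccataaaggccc
The Sox2 window held 27 CpGs and 3 CCGG sites, and 10 of its cytosines were measured. The Neurod1 window held 26 CpGs with 3 cytosines measured, the Prox1 window 25 CpGs with 6, and the Bmp4 window 12 CpGs with 5. The Gfap window held 3 CpGs and 0 CCGG sites. RefSeq windows were matched for 37 of the 50 genes by symbol. Of their 50 windows, 39 (78%) held the letters CCGG, which read the same on both strands, against 52.8% of all 32851 windows of the same length, and 28 held a measured cytosine. The median number of CpGs was 16.5 in the windows of these genes and 7 in all windows.

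The mice differed in which cytosines they covered, and this moved with the gene-body levels. Each mouse had values at 489796 to 725449 CpGs (64.3% to 95.2% of the table) and at 60.1% to 95.1% of the cytosines of the neurogenesis genes. The authors kept values with at least 10 reads, but read numbers are not in the table, so the depth and the counting error of each value are unknown. A composition index was computed for each mouse as the mean Young STD level of the cytosines it covered. It was 30.5% to 32.1% in Young STD mice, 19.5% to 38.0% in Aged STD mice and 23.4% to 36.2% in Aged ENR mice. The index was under 25% in Aged STD mice 3, 4 and 6 and in Aged ENR mouse 4, and results are therefore also given without these 4 mice, a choice made after the data had been seen. At the 69034 CpGs measured in every mouse, where the cytosines covered are the same, they averaged 16.3%, 17.4%, 16.7% and 17.7%, in that order. The other mice averaged 18.7% to 21.8% there. The index is thus tied to group and to level, and with it as a term coverage and a difference in methylation cannot be told apart. Levels of a region are means over its cytosines, each centred on the mean of its own group means before averaging so that an uncovered cytosine does not shift a mouse. They can therefore fall below 0% or above 100%. Among markers of the tissue, promoters of 6 neuronal genes had Young STD levels of 0.309% to 6.54%, those of 4 astrocyte genes 0.630% to 29.7%, of 4 oligodendrocyte genes 0.831% to 55.4%, of 2 microglial genes 13.0% to 20.5% and of 2 endothelial genes 0.978% to 2.20%. Of 20 marker gene bodies of these cell types, 18 were lower in Aged STD mice when set against Young STD (median difference -5.35 percentage points), where 72.7% of all gene bodies were lower. Aged ENR mice were higher in 18 of them when set against Aged STD (median 3.82), where 37.2% of all gene bodies were lower, and lower in 13 when set against Young STD (median -3.27), where 66.0% of all were. Without the 4 mice of low index the counts were 17 lower (median -4.04), 14 higher (median 1.63) and 13 lower (median -2.49). The astrocyte gene Gja1, named after its values were seen, stood out with a gene body of 6 cytosines at 90.5% ± 7.07 (SD, n = 5) in Young STD, 41.2% ± 27.3 (n = 6) in Aged STD and 84.1% ± 10.5 (n = 6) in Aged ENR mice. Its values did not overlap between Young STD and Aged STD mice in the mice measured. Nor did those of the microglial gene Cx3cr1, with a gene body of 179 cytosines and a difference of -3.79 points (SE 2.34, adjusted p = 0.676, limma), where 1.28% of all gene bodies measured in every mouse did not overlap. Gja1 differed by -49.3 points between these groups (SE 11.4, adjusted p = 0.369, limma) and by 42.8 between Aged ENR and Aged STD mice (SE 10.9, adjusted p = 0.936). Without the 4 mice of low index these differences were -34.1 and 27.6. The part of other cell types in the results below was not tested.

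Promoters of the neurogenesis genes were nearly unmethylated in all 3 groups. Over the 45 promoters with at least 3 measured cytosines, the median level was 1.22% in Young STD, 1.40% in Aged STD and 1.39% in Aged ENR mice, against 1.66% over all genes in Young STD mice. In Young STD mice 44 of 45 (97.8%) were under 10%, against 77.3% of all promoters and 85.9% of those of protein-coding genes. Gene bodies spanned a wide range but were mostly low. Over 44 gene bodies the median was 16.5% in Young STD, 13.1% in Aged STD and 16.6% in Aged ENR mice, against 60.6% over all genes in Young STD mice. Of these gene bodies 18 of 44 (40.9%) were under 10%, against 11.7% of all genes, and 6 (13.6%) were over 50%, against 60%. The plot of levels by gene shows the flat promoters beside the spread of the gene bodies.

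**Figure D1:**
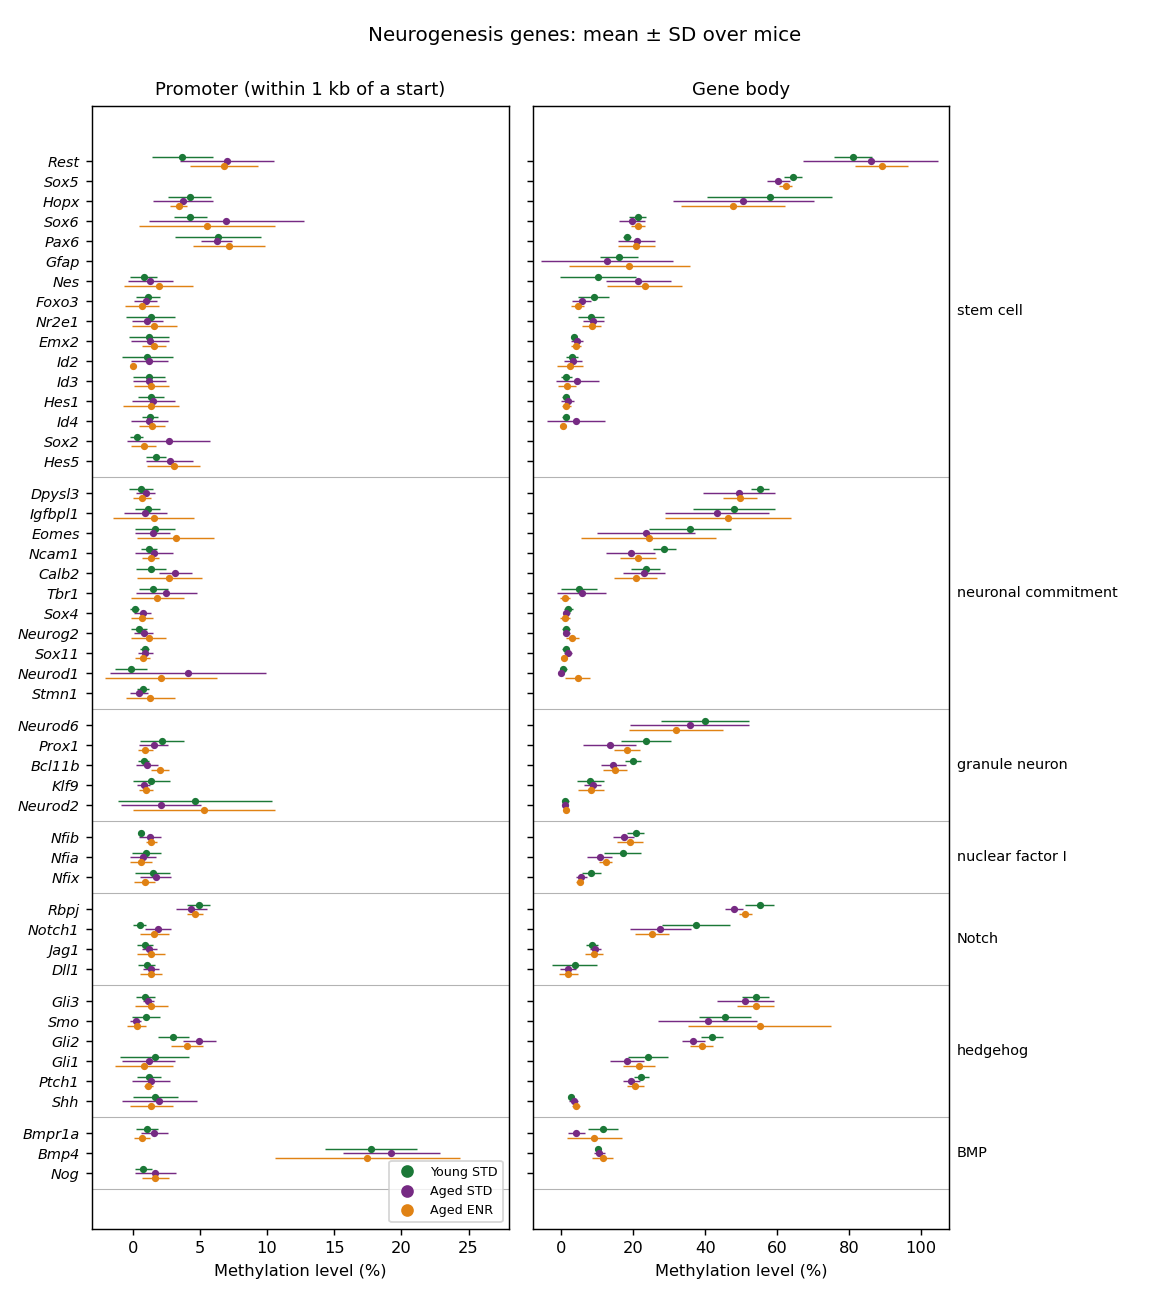
Methylation level (%) of the promoter (left) and gene body (right) of each neurogenesis gene, grouped by role, as mean over mice with bars of 1 SD, for Young STD (n = 5), Aged STD (n = 7) and Aged ENR mice (n = 7), with fewer mice where a region was not measured in all. All promoter means but those of Bmp4 lie under 10%, while gene bodies in Young STD mice run from 0.511% for Neurod1 to 81.1% for Rest.

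The gene bodies of the stem cell genes ran from nearly unmethylated to highly methylated. Rest, a repressor of neuronal genes, had the highest gene-body level, 81.1% ± 5.31 (SD, n = 5 Young STD mice), over 8 cytosines. Sox5, a factor that stem cells use to leave quiescence, had 64.5% ± 2.48 over 196 cytosines, and its relative Sox6 had 21.2% ± 2.33 over 133. Hopx, a marker of quiescent stem cells, had 57.9% ± 17.4. Nr2e1, the nuclear receptor TLX, had 8.19% ± 3.72 over 59 cytosines, Emx2 3.57% ± 0.783, Hes1 1.18% ± 0.986 and Id4, an inhibitor of proneural factors, 1.16% ± 0.975. Sox2 had no gene-body cytosine outside its promoter, and all 52 of its cytosines lie inside another annotated gene as well.

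Gene bodies of the neuronal commitment and granule neuron genes also differed widely among themselves. Neurod1, the factor that drives progenitors to neurons, had a gene body of 0.511% ± 0.907 over 14 cytosines, Sox11 1.17% ± 0.966 over 20, and Neurog2 1.21% ± 1.11 over 14. Dpysl3, a neuroblast protein of the growth cone, had 55.2% ± 2.53, and Eomes, the marker of intermediate progenitors, had 35.8% ± 11.4 over only 6 cytosines. In the granule neuron set, the gene body of Neurod2 was at 1.11% ± 1.02, that of Klf9 at 8.04% ± 3.79, that of Bcl11b at 19.9% ± 2.22, that of Prox1 at 23.6% ± 6.94 and that of Neurod6 at 39.9% ± 12.3. The means of Klf9 and Bcl11b lay further apart than their SDs, whereas the values of Bcl11b and Prox1 overlapped.

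Within each signalling pathway the gene bodies differed as well. In the hedgehog pathway the ligand gene Shh had a gene body of 2.74% ± 0.519 over 155 cytosines, the receptor gene Ptch1 22.2% ± 2.07, and the transcription factors Gli1, Gli2 and Gli3 had 24.1% ± 5.64, 41.9% ± 3.07 and 54.1% ± 3.73. In the Notch pathway the ligand genes Dll1 and Jag1 had 3.65% ± 6.37 and 8.51% ± 1.80, the receptor gene Notch1 37.4% ± 9.50 and Rbpj, the DNA-binding partner of the Notch domain, 55.1% ± 4.15. In both pathways the ligand genes had the lowest gene bodies. The BMP ligand gene Bmp4 was at 10.1% ± 0.848 and the receptor gene Bmpr1a at 11.5% ± 4.22, while Nog, which encodes the BMP antagonist noggin, had promoter cytosines only, at 0.809% ± 0.636.

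The gene body was above the promoter in 37 of the 41 genes with both regions, by at least 10 percentage points in 21, and within 2 points in 9. The exception with the widest gap was Bmp4, whose promoter (17.7% ± 3.43, n = 5, 5 cytosines) was above its gene body in Young STD mice, with a gene body minus promoter of -7.67 points. Neurod2 had 4.64% in the promoter and 1.11% in the gene body. Averaged over the genes, gene body minus promoter was 19.7 points in Young STD, 16.9 in Aged STD and 17.9 in Aged ENR mice, and it was above 0 in 19 of 19 mice, between 14.3 and 22.1. The mean level was higher further from the nearest start, from 1.54% within 500 bases to 6.95% at 2000 to 5000 bases and 39.0% beyond 20000 bases in Young STD mice. These are means over cytosines that share genes and mice, and are given as a description.

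**Figure D2:**
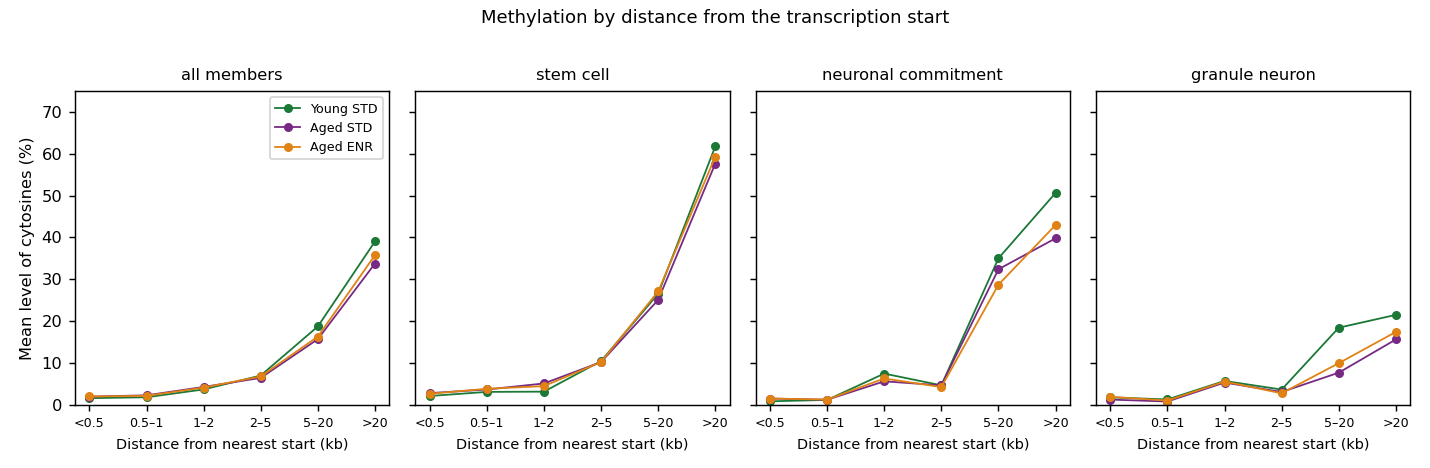
Mean methylation level (%) of cytosines by distance from the nearest transcription start (kb) for all neurogenesis genes and for the stem cell, neuronal commitment and granule neuron sets, 1 line per group of mice. In all genes the Young STD line climbs from 1.54% to 39.0%, and beyond 20 kb it lies above the Aged STD line (33.8%) and the Aged ENR line (35.8%).

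CpG density went with the level, but the gene bodies of these genes were lower at every density. In Young STD mice, gene-body cytosines with 0 to 5 CpGs in the surrounding 200 bases averaged 39.9%, against 61.6% in the bodies of all protein-coding genes. With 6 to 11 CpGs the averages were 23.3% and 49.4%, with 12 to 17 they were 5.47% and 20.5%, and with 18 or more they were 3.05% and 5.37%. This comparison is across cytosines and has no test.

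The order of stem cell and granule neuron gene bodies depended on whether the genes were summarised by their mean or their median. By the mean, the stem cell genes were higher in most mice, and by the median they were lower in all 3 groups. The mean over 14 stem cell gene bodies was 21.2% ± 1.94 in Young STD, 21.7% ± 3.21 in Aged STD and 21.8% in Aged ENR mice. Over 5 granule neuron gene bodies it was 18.5% ± 4.37, 14.6% ± 4.36 and 14.9%. The difference of stem cell minus granule neuron genes within a mouse was 2.68 ± 3.51 points (SD, n = 5), 7.09 ± 3.47 (n = 7) and 6.90 ± 1.79 (n = 7), and it was above 0 in 18 of 19 mice, from -1.30 to 13.8. Without Young STD mouse 2 the Young STD value was 1.32. In the promoters the stem cell genes were above the granule neuron genes in 14 of 19 mice. The promoter difference was -0.117 ± 1.50 points (SD) in Young STD, 1.44 ± 0.234 in Aged STD and 0.342 ± 1.02 in Aged ENR mice. Promoter medians in Young STD mice were 1.32% for stem cell and 1.78% for granule neuron genes. For gene bodies, the median over genes was 9.55% for stem cell and 19.9% for granule neuron genes in Young STD mice, 10.7% and 13.5% in Aged STD mice, and 13.7% and 14.8% in Aged ENR mice. The 3 stem cell gene bodies over 50% in Young STD mice were Rest, Sox5 and Hopx. Beyond 20 kb, cytosines of stem cell genes averaged 61.8% and those of granule neuron genes 21.5% in Young STD mice, from 4 and 3 genes.

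In the comparison of Aged STD with Young STD mice, which bears on age under standard housing, no promoter or gene body of a neurogenesis gene passed the test (limma, Benjamini-Hochberg over 32734 regions of all genes). The count was 0 of 45 promoters and 0 of 44 gene bodies, and 0 of all regions tested were called (0% of either kind). At an unadjusted p under 0.05, 7 of 44 gene bodies differed (15.9%), all lower in Aged STD mice, where 10.3% of all gene bodies were lower and 11.5% differed either way. They were Prox1, Bcl11b, Ncam1, Nfia, Nfix, Rbpj and Bmpr1a. With the composition index as a term, 1 of 44 remained, Bmpr1a, against 5.85% of all gene bodies, and without the 4 mice of low index the count was 1 of 44 against 6.32%.

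The count of 7 was 3 of 48 with promoters of 500 bases on each side, against 10.9% of all, and 1 of 27, a higher one, on cytosines measured in every mouse, against 12.2%. It also depended on single mice. Without Young STD mouse 5 it was 1, Bmpr1a, without Young STD mouse 4 it was 3, and without Aged STD mouse 2, 3 or 6 it was 4, in a range of 1 to 9 over all mice left out. Over all 44 gene bodies, 28 were lower and 16 higher in Aged STD mice (63.6% lower, against 72.7% of all gene bodies). The median difference was -2.30 points against -3.22 over all genes. With the index as a term the medians were -0.12 and -1.17, and without the 4 mice they were -0.02 and -1.11. The list mean was 21.7% ± 1.71 in Young STD and 19.3% ± 2.51 in Aged STD mice, a difference of -2.32 points that was -0.54 with the index as a term, -0.50 without the 4 mice, -1.09 on cytosines measured in every mouse and -1.20 with promoters of 500 bases. The 4 mice of low index had the lowest values of all 19, 16.6% to 17.5%. With 1 mouse left out, the difference changed direction in 11 of 44 gene bodies and 21 of 45 promoters, and in the other comparisons in 13 and 24 (Aged ENR minus Aged STD) and in 12 and 18 (Aged ENR minus Young STD). Where a difference named in the text changed direction or fell by over 3 times in this way, the value without that mouse is given beside it.

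**Figure D3:**
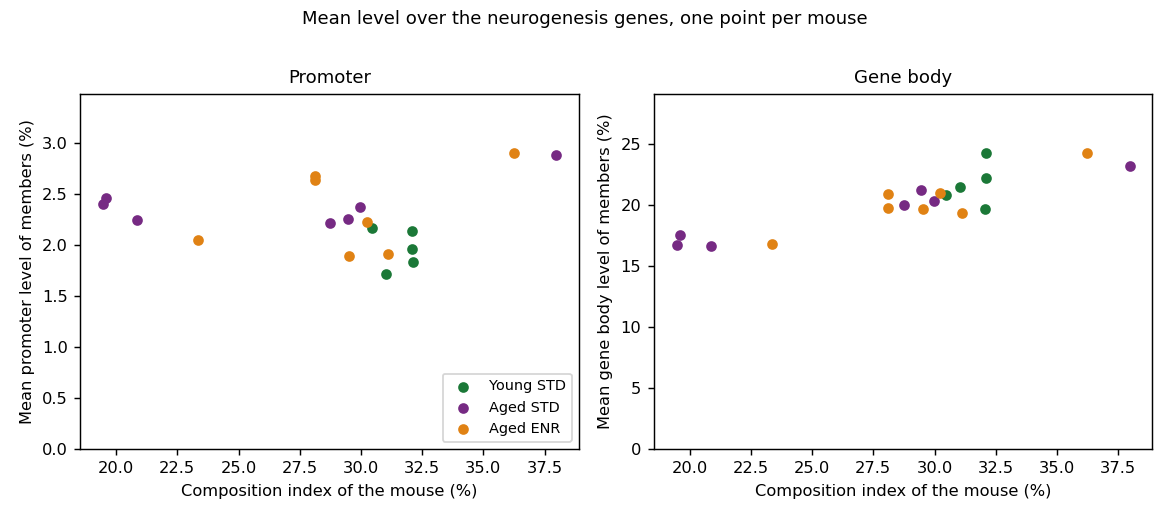
Mean level (%) over the neurogenesis genes in each mouse against the composition index of that mouse (%), for promoters (left, 45 genes) and gene bodies (right, 44 genes), 1 point per mouse coloured by group. In the gene bodies the 4 mice with an index under 25% have the lowest levels, and Aged STD mouse 5, with an index of 38.0%, is at 23.2%.

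Prox1, the homeobox factor that granule neurons need to form and survive, lies at chr1:190118035-190170714 on the minus strand. Its gene body, with 45 cytosines, was at 18.3%, 18.5%, 20.6%, 25.5% and 34.8% in the 5 Young STD mice. The 7 Aged STD mice ran from 5.05% to 27.4% with a median of 14.3%, and the 7 Aged ENR mice from 11.9% to 23.6%. Most Aged STD mice were below all Young STD mice, but Aged STD mouse 5 was above 4 of them. The difference of Aged STD minus Young STD mice was -10.1 points (SE 4.12, adjusted p = 0.561, limma), -5.96 with the index as a term and -7.53 without the mice of low index.

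Bcl11b, a zinc finger factor of granule neuron maturation, lies at chr12:107910403-108003602 on the minus strand and had 162 gene-body cytosines. The Young STD mice were at 17.4%, 19.0%, 19.4%, 20.3% and 23.3%. The Aged STD mice ran from 10.3% to 19.1% with a median of 12.8%, and the Aged ENR mice from 11.6% to 20.2% with a median of 14.2%. In both aged groups 5 of 7 mice were below every Young STD mouse. The difference was -5.44 points (SE 2.21, adjusted p = 0.561, limma), and -3.51 without the mice of low index. Cytosines that were over 25 points lower in Aged STD than in Young STD mice numbered 16 of 173 tested in Bcl11b (9.25%, where 7.19% of all cytosines were this much lower), and 0 were over 25 points higher.

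The next 2 sequences show the introns in which such cytosines lay closest together in the granule neuron genes Prox1 and Bcl11b. Each window of 200 bases was chosen after its values were seen, so its levels are a description. Capitals mark the CpGs with a measured cytosine, on the minus strand of GRCm38.
Prox1 intron, chr1:190149960-190150159: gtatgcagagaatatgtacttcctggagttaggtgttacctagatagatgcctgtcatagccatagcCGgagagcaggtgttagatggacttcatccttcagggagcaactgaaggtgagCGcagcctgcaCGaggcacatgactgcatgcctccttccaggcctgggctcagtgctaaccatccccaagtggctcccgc
Bcl11b intron, chr12:107923416-107923615: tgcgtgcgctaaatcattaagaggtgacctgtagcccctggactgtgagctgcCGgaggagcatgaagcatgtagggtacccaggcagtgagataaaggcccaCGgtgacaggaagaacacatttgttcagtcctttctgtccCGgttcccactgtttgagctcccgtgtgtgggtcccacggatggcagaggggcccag
In the Prox1 window, whose closest measured cytosine lies 19307 bases from a transcription start, 3 of 4 measured cytosines were over 25 points lower in Aged STD mice. The window level was 18.3%, 75%, 30.9%, 75% and 91.0% in the Young STD mice, 19.3% ± 30.8 over the Aged STD mice and 23.1% ± 10.9 over the Aged ENR mice. In the Bcl11b window, whose closest lies 79852 bases from a start, 4 of 4 cytosines were lower by that much, and the level was 59.4%, 34.6%, 65.3%, 61.1% and 70.0% in the Young STD mice, 15.6% ± 16.5 over the Aged STD mice and 33.0% ± 33.8 over the 6 Aged ENR mice measured. The Prox1 values spread over most of the range within the Young STD group alone.

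Ncam1, an adhesion molecule that carries polysialic acid on immature neurons, had a gene body at 30.5%, 28.2%, 25.3%, 25.9% and 33.2% in the Young STD mice. The Aged STD mice ran from 9.28% to 28.1% with a median of 19.3%, so that the groups overlapped at the upper end. The difference was -9.41 points (SE 3.66, adjusted p = 0.545, limma), -5.07 with the index as a term and -5.15 without the mice of low index.

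Bmpr1a, the type I BMP receptor through which BMPs keep stem cells quiescent, was the only gene body of 41 measured in every mouse compared whose groups did not overlap (1.28% of all gene bodies did not, 1.18% with the lower level in Aged STD mice). It lies at chr14:34410734-34503341 on the minus strand, and only 10 cytosines outside its promoter were measured. The Young STD mice were at 8.60%, 7.24%, 10%, 17.2% and 14.6%. The Aged STD mice ran from -0.41% to 7.10% with a median of 4.26%. The difference was -7.42 points (SE 1.83, adjusted p = 0.369, limma), -6.23 with the index as a term, -4.51 within the libraries of number series 27 and -11.8 within those of series 37. On the cytosines measured in every mouse it was 3.01, the opposite direction. In the Aged ENR mice the level ran from -2.97% to 18.5%, over the ranges of both other groups.

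Within the Bmpr1a gene, 1 intronic cytosine at chr14:34499076 on the plus strand, 3611 bases from the nearest start, had groups that did not overlap, out of 668 cytosines of the neurogenesis genes measured in every mouse compared (0.432% of all such cytosines did not). Its values were 46.5%, 47.3%, 62.1%, 41.3% and 50% in the Young STD mice. In the Aged STD mice they ran from 0% to 41.3% with a median of 27.3%, and the lowest 3 were those of low index, and the highest Aged STD value and the lowest Young STD value both round to 41.3%. The difference was -29.3 points (SE 12.6, adjusted p = 0.760, limma over 527594 cytosines).

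Members of the nuclear factor I family, which time the switch from stem cell to neuron and glia, had lower gene-body means in Aged STD mice in 3 of 3 cases, where 72.7% of all gene bodies were lower. Their median difference was -3.37 points against -3.22 over all genes, -1.89 with the index as a term and -2.05 without the 4 mice of low index, and the number at an unadjusted p under 0.05 went from 2 to 0 under both. Nfia was at 14.7%, 11.8%, 13.7%, 21.9% and 23.0% in Young STD mice and between 5.37% and 15% in Aged STD mice, a difference of -6.39 points (SE 2.50, adjusted p = 0.55, limma). For Nfia the difference was -1.90 within library series 27 and -13.0 within series 37. Nfix, with 246 cytosines, differed by -2.82 points (SE 1.25, adjusted p = 0.581) and Nfib, with 131, by -3.37 (SE 2.27, adjusted p = 0.694). Within each of these genes the groups overlapped.

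In the Notch pathway, Rbpj was at 56.7%, 55.4%, 49.0%, 54.2% and 60.4% in Young STD mice and between 44.0% and 51.3% in Aged STD mice. Only Young STD mouse 3 fell within the Aged STD range, and the difference was -7.06 points (SE 2.99, adjusted p = 0.572, limma). Notch1 was at 32.5%, 29.2%, 41.0%, 31.9% and 52.5% in Young STD mice and between 12.2% and 36.5% in Aged STD mice, a difference of -9.87 points (SE 5.32, adjusted p = 0.645). Dll1 differed by -1.83 (SE 2.48), but by 0.974 without Young STD mouse 5, and Jag1 by 0.889 (SE 1.20).

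**Figure D4:**
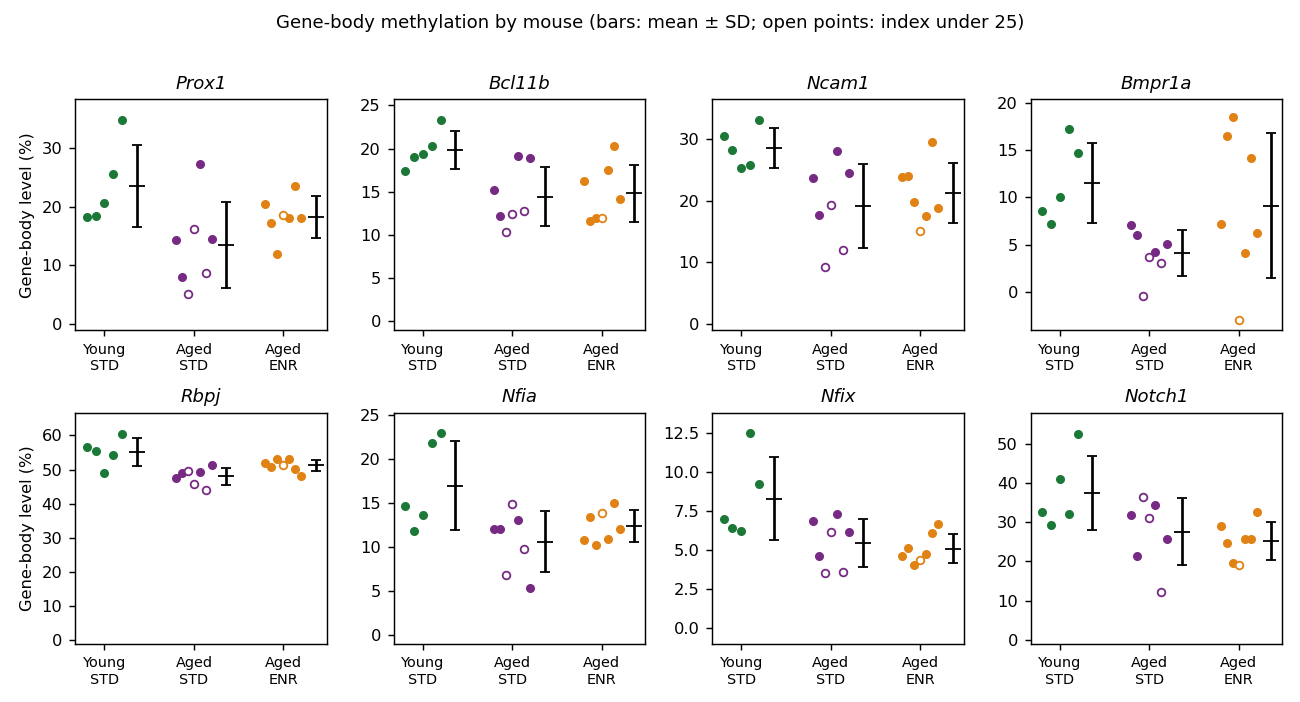
Gene-body methylation level (%) of 8 neurogenesis genes, 1 point per mouse by group, with the group mean and bars of 1 SD, and open points for the 4 mice with a composition index under 25%. In Bmpr1a the 7 Aged STD mice, from -0.41% to 7.10%, all lie below the lowest Young STD mouse at 7.24%, and in the other 7 genes the 2 groups overlap.

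Of the 14 stem cell gene bodies, 9 were higher and 5 lower in Aged STD mice, with a median difference of 0.58 points, or 35.7% lower, where 72.7% of all gene bodies were lower. None differed at an unadjusted p under 0.05, where 11.5% of all gene bodies did. Nes, the intermediate filament nestin, had a gene body at 14.6%, 24.2%, 9.73%, -4.65% and 6.74% in Young STD mice and between 9.16% and 37.5% in Aged STD mice, over 5 cytosines, a difference of 11.3 points (SE 5.34, adjusted p = 0.609, limma). Rest differed by 5.08 (SE 8.04), and by -1.15 without Aged STD mouse 3. Id3, another inhibitor of proneural factors, differed by 3.06 (SE 2.47) and by -0.503 without the mice of low index. Gfap differed by -3.41 (SE 8.48), and by -0.868 without Aged STD mouse 1. The differences of Nr2e1, 0.605 (SE 1.88), and Id4, 2.82 (SE 3.31), changed direction without Aged STD mouse 7, to -0.283 and -0.210. In Id4 that mouse was at 22.1% and the other Aged STD mice at 0% to 2.79%. Pax6, with 71 gene-body cytosines, was the gene with most cytosines over 25 points higher, 10 of 118 tested against 2 lower, where 2.17% of all cytosines were this much higher. In the neuronal commitment set 7 gene bodies were lower and 3 higher, a share close to that of all gene bodies. Eomes differed by -12.3 points (SE 7.17, adjusted p = 0.665, limma), Sox11 by 0.640 (SE 0.637) and Neurog2 by 0.129 (SE 0.611), the last by -0.173 without Young STD mouse 5.

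**Figure D5:**
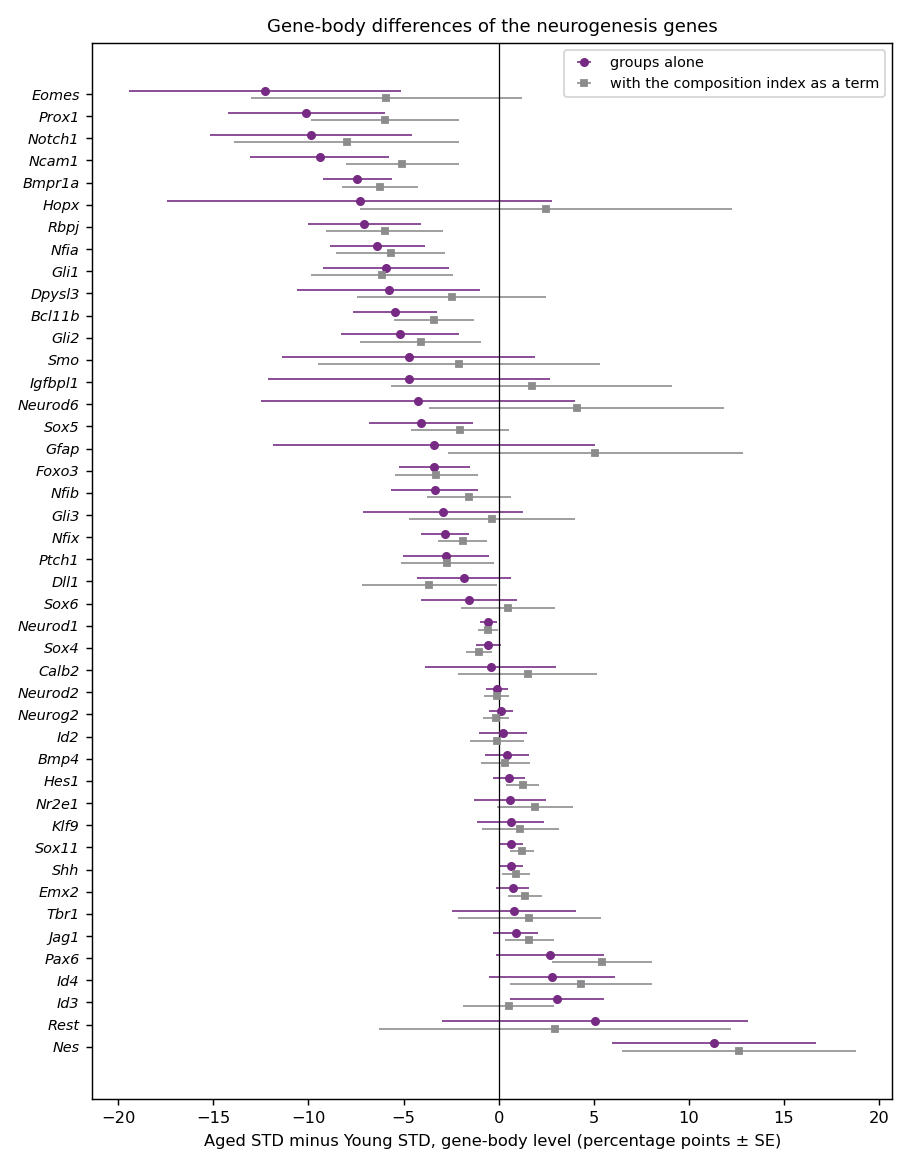
Difference in gene-body level with age in standard housing (percentage points, Aged STD minus Young STD) for the 44 gene bodies, with bars of 1 SE from limma, for the fit on groups alone (circles) and with the composition index as a term (squares). Without the index 28 differences lie below 0 and 16 above, and with it 24 and 20.

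Promoter differences with age were small and mostly upward. Of 45 promoters, 30 were higher and 15 lower in Aged STD mice (33.3% lower, against 51.0% of all promoters). The median difference was 0.22 points against -0.03 over all genes. The list mean was 1.72% to 2.17% in the 5 Young STD mice and 2.21% to 2.89% in the 7 Aged STD mice. The means differed by 0.44 points. The ranges did not overlap, but the nearest mice were at 2.167% and 2.214%. This is a mean over chosen genes, with no test and no share over other lists. At an unadjusted p under 0.05, 3 of 45 promoters differed, all higher, against 5.87% of all promoters in either direction and 1.66% higher. They were Gli2 (1.94 points, SE 0.774, adjusted p = 0.557, limma), Notch1 (1.38, SE 0.527, adjusted p = 0.536) and Calb2, the gene of calretinin in immature neurons (1.82, SE 0.719, adjusted p = 0.555). Gli2 was at 3.14%, 4.45%, 3.41%, 2.79% and 1.28% in Young STD mice and between 2.81% and 6.30% in Aged STD mice, and with promoters of 500 bases on each side its difference was -1.51. With the index as a term 2 of 45 differed, Sox6 and Rest, both higher, against 6.34%, and without the mice of low index 1 of 45 against 4.99%. On cytosines measured in every mouse 0 of 22 differed, against 4.63%. Without Young STD mouse 4 the count was 0 and without Aged STD mouse 5 it was 5. Groups did not overlap in 0 of 41 promoters measured in every mouse, against 0.376% of all.

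The Sox2 promoter region, with 38 cytosines within 1000 bases of a start, was at 0.164%, 0.440%, 0.975%, -0.264% and 0.152% in Young STD mice. In Aged STD mice it was at 2.83%, 1.18%, 8.81%, 4.43%, -0.197%, 1.17% and 0.678%. The 2 highest values were those of mice 3 and 4, both of low index. In the 10 cytosines of the window printed above, these mice were each at 1.03% and the highest Aged STD mouse was mouse 1 at 5.87%. The difference was 2.41 points (SE 1.30, adjusted p = 0.646, limma) and 0.829 without the mice of low index. Sox6 differed by 2.68 (SE 2.44) and Rest by 3.36 (SE 1.69), and the lowest were Neurod2 with -2.53 (SE 2.28), Smo, the hedgehog signal transducer, with -0.716 (SE 0.537) and Prox1 with -0.621 (SE 0.777). Without Young STD mouse 1, at 13.5%, the Neurod2 difference was -0.309, and without Young STD mouse 4 that of Prox1 was 0.103. The promoter of Neurod1 had values in 4 Aged STD mice only, at 0%, 4.27%, 0% and 12.3%. Promoters of Hes5 and Nog differed by 1.00 (SE 0.836) and 0.862 (SE 0.716), and that of Bmp4 by 1.50 (SE 2.54), or 0.410 without Young STD mouse 3.

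At single cytosines, 0 of 2915 in the neurogenesis genes passed the test (limma, adjusted p under 0.05 and over 25 points, over 527594 cytosines). At an unadjusted p under 0.05 there were 115 (3.95%), 93 lower and 22 higher, against 4.42% of all cytosines (3.33% lower, 1.09% higher). With the index as a term there were 163 (5.59%), 47 lower and 116 higher, against 4.68% of all (2.11% lower). Without the mice of low index 29 were lower and 42 higher of 2526, against 7756 and 6488 of all 479044. Over all mice, group means were over 25 points apart at 186 (6.38%), of which 145 were lower and 41 higher in Aged STD mice. Over all cytosines 9.35% were this far apart, 7.19% lower and 2.17% higher. The larger part lay in gene bodies, with 138 lower and 25 higher of 1699, while promoters had 2 lower and 8 higher of 947. Sox5 had 18 of 180 (10%, 16 lower), Gli2 15 of 126 (11.9%, 12 lower) and Nfix 12 of 240 (5%, 11 lower). Nfib had 10 of 142 (7.04%, 9 lower) and Nfia 9 of 81 (11.1%, 9 lower). With the index as a term, 116 cytosines were over 25 points lower and 85 higher (30544 and 21172 of all 527594). Without the mice of low index these were 123 and 66 of 2526 (28174 and 18033 of all 479044).

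The comparison of Aged ENR with Aged STD mice sets enriched against standard housing at the same age. By the study's methods, the enriched mice of an experiment lived together in a shared enclosure and standard mice lived in shared cages. Which mice lived together is not given in the sources used here, so differences between housings and between enclosures cannot be told apart, and the p-values treat each mouse as independent. It shares the Aged STD mice with the previous comparison. No region of a neurogenesis gene passed the test (limma over 32739 regions, 0 of 45 promoters and 0 of 44 gene bodies, and 0 of all regions). At an unadjusted p under 0.05, 1 of 44 gene bodies differed, Neurod1, against 4.59% of all gene bodies, and 1 of 45 promoters, Bcl11b, against 4.30%. Without the mice of low index the gene bodies were 4 of 44 against 3.83%, and with the index as a term 2 of 44 against 4.23%. With 1 mouse left out the gene bodies numbered 1 to 3 and the promoters 0 to 1. Groups overlapped in all 39 gene bodies measured in every mouse (0.049% of all gene bodies did not overlap) and in all 41 promoters (0.035%). Over the 44 gene bodies 26 were higher and 18 lower in Aged ENR mice (40.9% lower, against 37.2% over all genes), with a median difference of 0.48 points against 1.15. With the index as a term 20 were higher and 24 lower, with medians of -0.44 and 0.19, and without the 4 mice of low index 20 were higher and 24 lower, with medians of -0.06 and -0.17. The difference of the list mean in the gene body was 0.87 points, but -0.29 with the index as a term, -0.37 without these mice and -0.27 on cytosines measured in every mouse. In the promoter it was -0.07, but 0.10 with promoters of 500 bases on each side and -0.38 on cytosines measured in every mouse. At an unadjusted p under 0.05, 3 of 42 promoters differed with promoters of 500 bases, against 4.07% of all, and 0 of 45 without the mice of low index, against 3.98%. On cytosines measured in every mouse 0 of 27 gene bodies and 0 of 22 promoters did, against 3.77% and 3.85%.

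The gene body of Neurod1 had 14 cytosines, all in its exons and all inside a second annotated gene, at chr2:79452521-79456751 on the minus strand. It was at -0.0237%, 0.420%, 2.10%, -0.0378% and 0.0945% in Young STD mice and between -1.12% and 0.952% in Aged STD mice. In the 6 Aged ENR mice measured it was at 7.77%, 1.64%, 10.1%, 1.38%, 3.07% and 3.04%, each above every Aged STD mouse. This gene body was not measured in every mouse compared. Among all gene bodies that were, 0.049% had groups that did not overlap. Of the Neurod1 cytosines, 0 were measured in every mouse, so the difference could not be checked on shared cytosines. The difference of Aged ENR minus Aged STD mice was 4.52 points (SE 1.27, adjusted p = 0.936, limma), 4.49 with the index as a term and 5.12 without the mice of low index. Against Young STD mice it was 3.98 (SE 1.51, adjusted p = 0.720), and Young STD mouse 3 lay within the Aged ENR range.

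The Bcl11b promoter was at 0.307%, 0.780%, 1.22%, 0.521% and 1.27% in Young STD mice, between 0.279% and 2.63% in Aged STD mice and between 1.31% and 3.08% in Aged ENR mice. Aged ENR minus Aged STD was 0.983 points (SE 0.452, adjusted p = 0.936, limma) and Aged ENR minus Young STD 1.23 (SE 0.440, adjusted p = 0.665). All of these values lie under 4%. In the gene body of Bcl11b the groups differed by 0.394 points (SE 2.04), and by -0.511 without Aged ENR mouse 6.

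Other gene bodies with wide differences between the aged groups had few cytosines or a wide spread. Smo was higher in Aged ENR mice by 14.5 points (SE 8.82) over 5 cytosines, Gfap by 6.20 (SE 9.19) over 9 and Bmpr1a by 4.99 (SE 2.81) over 10. Tbr1, a factor of newly formed neurons, differed by -4.71 points (SE 2.41), Neurod6 differed by -3.75 (SE 7.57) and Id4 by -3.56 (SE 2.80). Without Aged STD mouse 2 the Neurod6 difference was 0.580, and without Aged STD mouse 7 that of Id4 was -0.535. Among promoters Sox2 differed by -1.87 (SE 1.15), Bmp4 by -1.79 (SE 3.08), Sox6 by -1.44 (SE 2.70), Eomes by 1.72 (SE 1.12) and Neurod2 by 3.20 (SE 2.11). The Bmp4 promoter difference was -0.113 without Aged ENR mouse 1, and that of Sox6 -0.0489 without Aged STD mouse 1. Prox1, whose gene body was low in Aged STD mice, differed by 4.85 points (SE 3.11, adjusted p = 0.936), and by 2.22 without the mice of low index. None of these passed the test.

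At single cytosines between the aged groups, 0 of 3021 passed the test (limma over 530253). At an unadjusted p under 0.05 there were 57 (1.89%), 21 lower and 36 higher, against 2.24% of all (0.797% lower, 1.45% higher). With the index as a term there were 112 (3.71%), 87 lower and 25 higher, against 3.13% of all (1.78% lower). Without the mice of low index 42 were lower and 13 higher of 2581, against 6460 and 5248 of all 471872. Over all mice, 130 (4.30%) were over 25 points apart, 50 lower and 80 higher in Aged ENR mice. Of all cytosines 7.16% were, 2.62% lower and 4.53% higher. Of the 130, Gli2 had 15 of 129 tested (11.6%, 6 lower and 9 higher) and Sox5 14 of 175 (8%). Nfib had 11 of 144 (7.64%, 10 higher) and Pax6 11 of 122 (9.02%), where 7.16% of all cytosines were this far apart. With the index as a term, 67 cytosines were over 25 points lower and 76 higher (18922 and 22443 of all 530253). Without the mice of low index these were 83 and 87 of 2581 (22191 and 21096 of all 471872). Groups did not overlap at 0 of 645 cytosines measured in every mouse, against 0.0162% of all.

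In the comparison of Aged ENR with Young STD mice, which shares both groups with the others, 0 of 45 promoters and 0 of 44 gene bodies passed the test (limma over 32723 regions, 0 of all regions). At an unadjusted p under 0.05, 7 of 44 gene bodies differed against 8.63% of all. The lower ones were 5 (7.17% of all were lower) and the higher ones 2 (1.46%). They were Notch1, Bcl11b, Ncam1, Nfix and Foxo3, a factor that preserves stem cells, with lower levels, and Neurod1 and Nes with higher levels. With the index as a term the count was 6 against 6.18%, and without the mice of low index 7 against 7.76%. On cytosines measured in every mouse it was 1 of 27 against 8.63%. Without Young STD mouse 5 it was 3. Notch1 ran from 19.1% to 32.5% in Aged ENR mice and differed by -12.2 points (SE 4.39, adjusted p = 0.665), Ncam1 by -7.37 (SE 3.11, adjusted p = 0.726), Bcl11b by -5.05 (SE 2.18, adjusted p = 0.727), Foxo3 by -4.42 (SE 1.71, adjusted p = 0.720) and Nfix by -3.20 (SE 1.14, adjusted p = 0.665). Nes differed by 13.0 (SE 5.73, adjusted p = 0.734), by -0.012 within library series 27 and 31.4 within series 37. Hopx differed by -10.3 (SE 8.49), Eomes by -11.5 (SE 8.83), Rest by 8.05 (SE 3.88) and Smo by 9.77 (SE 8.68).

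Among promoters, 3 of 45 differed between Aged ENR and Young STD mice at an unadjusted p under 0.05, all higher, against 5.32% in either direction and 1.93% higher. They were Bcl11b, Nfib (0.770 points, SE 0.331, adjusted p = 0.726, limma) and Rest (3.11, SE 1.39, adjusted p = 0.737). The count was 1 of 45 without the mice of low index (5.04% of all), 1 of 42 with promoters of 500 bases (4.67%) and 0 of 22 on cytosines measured in every mouse (4.31%). It was 1 without any of Young STD mice 1, 2 and 4 and Aged ENR mice 4, 5 and 6. Groups did not overlap in 2 of 40 promoters measured in every mouse, Bcl11b and Nfib, both higher, against 0.307% of all promoters and 0.14% higher. Nfib was at 0.528% to 0.670% in Young STD mice and at 0.679% to 1.86% in Aged ENR mice. Calb2 differed by 1.37 (SE 1.10), Eomes by 1.55 (SE 1.31), Prox1 by -1.22 (SE 0.662), Id2 by -1.10 (SE 0.868; 0 without Young STD mouse 2) and Hopx by -0.817 (SE 0.724).

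At single cytosines of this comparison, 0 of 2892 passed the test (limma over 522268). At an unadjusted p under 0.05 there were 101 (3.49%), 77 lower and 24 higher, against 3.95% of all (2.55% lower). With the index as a term there were 144 (4.98%), 56 lower and 88 higher, against 4.62% of all (2.27% lower). Without the mice of low index 59 were lower and 25 higher of 2815, against 10856 and 7150 of all 511612. Over all mice, 158 (5.46%) were over 25 points apart, 109 lower and 49 higher in Aged ENR mice. Of all cytosines 7.60% were, 5.21% lower and 2.39% higher. With the index 104 were lower and 80 higher (26888 and 19181 of all). Without the mice of low index they were 100 and 54 (25728 and 14083 of all). A single cytosine of 646 measured in every mouse had groups that did not overlap, against 0.323% of all. It lies in an intron of Sox6 at chr7:116024058 on the minus strand, with values of 93.1%, 95.6%, 81.3%, 90.8% and 96.1% in Young STD mice and 98% to 100% in Aged ENR mice, a difference of 8.17 points (SE 2.77, adjusted p = 0.776, limma).

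Other genes of the same roles, a list chosen with earlier results of these data known, were counted in the same way. Over 59 promoters the median was 1.33% in Young STD, 1.37% in Aged STD and 1.32% in Aged ENR mice, and over 53 gene bodies 28.6%, 24.5% and 26.4%. In Aged STD against Young STD mice 38 of these gene bodies were lower and 15 higher, or 71.7% lower against 72.7% of all gene bodies. At an unadjusted p under 0.05, 1 was lower and 0 were higher, where 11.5% of all gene bodies differed. Between Aged ENR and Aged STD mice 34 were higher and 19 lower, or 35.8% lower against 37.2% of all, with 1 lower at that p, where 4.59% of all differed. With the index as a term 25 were higher and 28 lower. In Aged ENR against Young STD mice 32 were lower and 21 higher, or 60.4% lower against 66.0% of all, with 2 lower and 1 higher at that p, where 8.63% of all differed. In all 3 comparisons 0 of them passed the test (limma, adjusted over all regions).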

How the data were processed

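RRBS libraries of single dentate gyri were trimmed, mapped to mm10 and called for methylation by the authors, whose processing notes name Trim Galore 0.4.0, cutadapt 1.8.1, Bismark 0.16.1 and methylKit 1.5.2. The deposited table gives the percent of methylated reads per cytosine and mouse for cytosines with at least 10 reads, without read numbers, so the depth and precision of a value are unknown. Of 762182 cytosines, 762162 lie in a CpG of GRCm38, and 0 sample columns matched no described sample.

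Genes came from GENCODE M21. A promoter was the sequence within 1000 bases of a transcription start, the gene body the rest of the gene, and a region needed at least 3 cytosines. Region levels of all genes, and single cytosines, were compared pairwise between groups with limma 3.58.1 on the percent scale (two-sided, at least 3 mice per group, variance trended on the mean, Benjamini-Hochberg adjustment over all regions or all cytosines, threshold 0.05, and for cytosines also 25 points). The study tested read numbers with methylKit, which the table does not allow. Samples were grouped by their labels. Replicates were separate mice, which by the study's methods shared enclosures or cages, and the cage of each was not given, so no cage term could be fitted. The code was tested on simulated data.

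The genes and lists were chosen with earlier results of these data known. Named genes are those called (none), the 3 largest differences in each direction per region kind and comparison among regions with at least 5 cytosines, 20 genes fixed by role, and up to 5 cytosines per comparison with groups that do not overlap. Genes outside this rule, such as Ncam1, Nfia, Rbpj, Foxo3 and Nfib, were named after their values were seen. Other genes of the roles (65) and cell type markers served as lists for comparison. Alternatives were the number series of the libraries (27 and 37), replicate number, all groups fitted together, the composition index, no variance trend, at least 5 cytosines, promoters of 500 bases, averaged strands, cytosines measured in every mouse, 20 points, each mouse left out, and, chosen after seeing the data, leaving out mice with an index under 25. Python 3.11.15, numpy 2.4.6, pandas 2.3.3, scipy 1.17.1, matplotlib 3.10.9, R 4.3.3 and version 1.17.8 of data.table were used.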

Additional observations from a re-analysis of the deposited data

Results flagged for a closer look

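In 3 of 48 groups of values examined, 1 mouse lay far from the rest of its group, where chance flags about 1 in 20. The mean promoter level over the neurogenesis genes was 2.89% in Aged STD mouse 5, and 2.21% to 2.46% in the other Aged STD mice. The Calb2 promoter was at 3.30% in Young STD mouse 5, and at 0.511% to 1.28% in the other Young STD mice. The Neurod1 gene body was at 2.10% in Young STD mouse 3, and at -0.0378% to 0.420% in the others.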

How the results depend on the processing

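Called regions and cytosines of the neurogenesis genes were 0 in every comparison under every alternative run (limma), including each mouse left out (0 to 0). In simulated tables of Aged STD against Young STD mice, the test found 6% of changes of 30 points and 10% of 60 points at single cytosines. For regions, over the 3 comparisons, it found 40% to 42% of changes of 10 points and 61% to 67% of 20 points. The unchanged count of 0 therefore says nothing about stability for cytosines and little for regions. Of the 53 differences named for their size or an unadjusted p under 0.05, all that could be fitted kept their direction with the library series, the composition index, all groups fitted together, no variance trend, at least 5 cytosines or averaged strands. Restricting to cytosines measured in every mouse reversed Bmpr1a gene body (3.01 for Aged STD minus Young STD, -1.38 for Aged ENR minus Aged STD) and the Sox6 promoter (-0.801 and 1.48). Promoters of 500 bases reversed Gli2 (-1.51), and leaving out the mice of low index, chosen after seeing the data, reversed Id3 (-0.503). Among these 53, leaving out 1 mouse reversed Neurod6 in Aged ENR minus Aged STD (-6.63 to 0.580, the latter without Aged STD mouse 2), and the Prox1 promoter (-0.979 to 0.103, the latter without Young STD mouse 4) and Rest gene body (-1.15, without Aged STD mouse 3, to 8.54) in Aged STD minus Young STD mice. The cause was not tested.

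Cytosines over 25 points apart became 284, 208 and 260 at 20 points (Aged STD minus Young STD, Aged ENR minus Aged STD, Aged ENR minus Young STD), and 6, 0 and 5 on cytosines measured in every mouse, where fewer were tested. On those cytosines the promoter list difference of Aged STD minus Young STD was 0.904, stem cell minus granule neuron gene body in Aged ENR 4.83, and gene body minus promoter 8.16, 6.17 and 6.28 in Young STD, Aged STD and Aged ENR. With promoters of 500 bases the last 2 quantities were 4.86, and 13.7, 12.1 and 12.6. The gene-body list difference of Aged ENR minus Young STD, -1.45, was -0.38 with the composition index, -0.88 without the mice of low index and -0.58 with promoters of 500 bases.

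With 1 mouse left out in turn, cytosines over 25 points apart numbered 190 to 220, 133 to 178 and 148 to 215 in the same order of comparisons. The gene-body list difference ran from -2.96 to -1.68, from 0.203 (without Aged ENR mouse 6) to 1.51 (without Aged STD mouse 5) and from -2.11 to -0.809 (without Young STD mouse 5), and the promoter list difference from 0.363 to 0.494, from -0.170 to 0.00501 (without Aged STD mouse 5) and from 0.273 to 0.441. Stem cell minus granule neuron gene body ran from 1.32 to 3.67 in Young STD, 5.98 to 7.55 in Aged STD and 6.56 to 7.35 in Aged ENR mice, and gene body minus promoter from 19.1 to 20.2, 16.4 to 17.4 and 17.3 to 18.4. Promoters with an unadjusted p under 0.05 numbered 0 to 5, 0 to 1 and 1 to 4, and gene bodies 1 to 9, 1 to 3 and 3 to 9.

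Replicate numbers did not pair the mice: deviations of mice with the same number correlated at -0.0364 to 0.115, -0.190 to 0.0526 and -0.0583 to 0.0235 over 23983 regions, over 0.1 in 1 of 5, 0 of 7 and 0 of 5 pairs. With the replicate number as a block 0 regions were called, 5 of 44 gene bodies of Aged STD minus Young STD mice had an unadjusted p under 0.05 against 8.42% of all, and the gene-body list differences were -2.15, 0.87 and -2.06.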
